A study of Homo sapiens with 40 samples.

Results

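Of 51489 H3K27ac peaks compared between senescent and non-senescent EndoC-βH3 cells, 3427 (6.66%) lay between genes, near a protein-coding start site but outside both deposited enhancer lists. They were chosen by position alone. Each was under 10000 bp wide, overlapped no listed enhancer and lay more than 2 kb from the start sites of protein-coding and lncRNA transcripts in GENCODE 44. The peak centre was outside protein-coding genes and under 100 kb from the nearest protein-coding start site. These peaks are called unlisted intergenic peaks here. The study defined enhancers by H3K27ac that overlapped H3K4me1 away from promoters, with H3K4me1 measured in 2 libraries per state. A peak can therefore be unlisted for lack of H3K4me1 as well as for weak H3K27ac. The lists drew on the same H3K27ac libraries, so lying outside them is not independent of signal.

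EndoC-βH3 is a human beta-cell line derived from fetal pancreas and immortalized with hTERT and SV40 large T antigen, which a tamoxifen-activated Cre recombinase can excise. Senescent cells had received 4-hydroxytamoxifen for 3 weeks, and non-senescent cells had not. The labels give the dose as 1 mM and the study's methods as 1 μM, and all cells carry the genotype label WT. H3K27ac was measured by chromatin immunoprecipitation and sequencing in 3 senescent and 3 non-senescent libraries, and CTCF in 3 and 3 others, within a series of 40 libraries. Nothing says that replicates were separate cultures, so p-values measure the spread between these libraries, which may be technical. The deposited tables give each peak's mean count over libraries, its log2 fold change and the standard error of that change (SE), so no value per library can be shown. All cells come from 1 line, and excision of large T antigen and senescence cannot be told apart in this design.

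H3K27ac is an acetyl mark on histone H3 that is laid down by the coactivators p300 and CBP at active promoters and enhancers. Enhancers between genes carry binding sites for cell-type factors, in beta cells among them PDX1, NKX6-1, MAF and NEUROD1, and for factors that respond to stress, such as p53 and AP-1. CTCF, a zinc-finger protein that anchors chromatin loops, binds many intergenic sites as well. Peaks are named here after the gene with the nearest protein-coding start site, which is a label of position and not evidence that the peak acts on that gene.

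The windows below come from the 3 gained and the 3 lost peaks with the smallest adjusted p, and show what kind of sequence changed most clearly. Each is the 200 bases of the peak with the most motif matches, read from the hg38 reference, and capitals mark the matches. The motifs were AP-1 TGANTCA, CRE TGACGTCA, forkhead TGTTTAC, homeodomain TTAATTA, MAF TGCTGAC, RFX GTTGCCNNG, the NEUROD E-box CAGATGG, the MYC E-box CACGTG, IRF TTCNNTTTC, E2F TTTCCCGC, NF-Y CCAATCAG, and NFI and p53 by name, on both strands.
PIGP (gained), hg38 chr21:37060433-37060632, + strand: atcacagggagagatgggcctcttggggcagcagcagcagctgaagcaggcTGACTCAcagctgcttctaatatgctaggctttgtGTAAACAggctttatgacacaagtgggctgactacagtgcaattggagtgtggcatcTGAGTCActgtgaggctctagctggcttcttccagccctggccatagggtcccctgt
IER5 (gained), hg38 chr1:181135052-181135251, + strand: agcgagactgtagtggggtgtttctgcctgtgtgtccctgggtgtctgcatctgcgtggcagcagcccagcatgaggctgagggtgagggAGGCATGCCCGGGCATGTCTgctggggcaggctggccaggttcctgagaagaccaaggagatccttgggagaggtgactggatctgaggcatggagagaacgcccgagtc
FMOD (gained), hg38 chr1:203400194-203400393, + strand: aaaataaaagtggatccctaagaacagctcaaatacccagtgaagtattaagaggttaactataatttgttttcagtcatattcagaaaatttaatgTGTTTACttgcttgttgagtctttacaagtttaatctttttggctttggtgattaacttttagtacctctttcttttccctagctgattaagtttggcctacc
SELENOP (lost), hg38 chr5:42950805-42951004, + strand: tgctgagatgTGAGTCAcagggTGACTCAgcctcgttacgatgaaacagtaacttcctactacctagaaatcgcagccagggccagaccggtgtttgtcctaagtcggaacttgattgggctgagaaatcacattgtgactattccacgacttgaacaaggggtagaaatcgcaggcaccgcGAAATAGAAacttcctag
KPNA2 (lost), hg38 chr17:68020502-68020701, + strand: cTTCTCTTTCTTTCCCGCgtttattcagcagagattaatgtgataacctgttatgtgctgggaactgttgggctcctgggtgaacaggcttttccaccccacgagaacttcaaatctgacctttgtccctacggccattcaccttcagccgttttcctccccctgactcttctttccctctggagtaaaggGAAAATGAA
NBPF11 (lost), hg38 chr1:148060540-148060739, + strand: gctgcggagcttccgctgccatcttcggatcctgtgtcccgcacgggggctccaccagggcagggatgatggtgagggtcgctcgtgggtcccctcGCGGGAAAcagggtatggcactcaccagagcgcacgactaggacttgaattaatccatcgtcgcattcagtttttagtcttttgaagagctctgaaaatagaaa

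In PIGP and SELENOP the capitals mark AP-1 matches, beside a forkhead match in the first and an IRF match in the second. The KPNA2 window holds an E2F match directly after an IRF match, and that of NBPF11 an E2F match. The single match at IER5 is a full p53 site, a tandem of sites for p53 dimers with no spacer. A match is a description of the letters and not evidence of binding.

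A full p53 site within 500 bp around the peak centre was rare, and most of the peaks that held one were gained. Of the 3427 unlisted intergenic peaks 4 held one, and all 4 were gained, which is 1.33% of the 301 gained peaks, 0 of the 544 lost and 0 of the others. Over all 51489 H3K27ac peaks 11 held the site (0.0214%), of which 10 were gained, 0 were lost and 1 was neither. Sites with 1 mismatch, tried after the data were seen, occurred in 10 unlisted intergenic peaks, of which 7 were gained and 0 lost. Over all peaks such sites occurred in 67, of which 23 were gained, 4 lost and 40 neither. With the exact site anywhere in the peak, 5 unlisted intergenic peaks held it and 4 of them were gained, while over all peaks 26 held it, of which 15 were gained, 0 lost and 11 neither. The windows of the 3 peaks beside IER5 are shown because they carry these sites, and they were picked after their values were seen. Capitals mark the p53 site.
DLGAP5 (gained), hg38 chr14:55212834-55212933, + strand: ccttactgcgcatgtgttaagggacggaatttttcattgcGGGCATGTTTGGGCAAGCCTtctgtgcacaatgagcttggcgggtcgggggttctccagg
HNRNPA3 (gained), hg38 chr2:177170299-177170398, + strand: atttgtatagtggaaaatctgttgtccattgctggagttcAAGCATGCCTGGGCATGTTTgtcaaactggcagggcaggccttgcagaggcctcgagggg
CHL1 (gained), hg38 chr3:111281-111380, + strand: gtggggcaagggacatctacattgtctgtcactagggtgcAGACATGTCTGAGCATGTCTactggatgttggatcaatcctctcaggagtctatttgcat

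The p53 site lay 20 bp from the peak centre at IER5, an immediate early response gene, 66 bp at DLGAP5, which encodes a mitotic spindle protein, 57 bp at HNRNPA3, an RNA-binding protein gene, and 46 bp at CHL1, a cell adhesion gene. At IER5 the log2 fold change was 2.21 (SE 0.22, adjusted p = 2.10e-21, authors' deposited DESeq2 table), or 4.64-fold. At DLGAP5 it was 1.45 (SE 0.30, adjusted p = 7.11e-06). At HNRNPA3 it was 1.82 (SE 0.42, adjusted p = 1.05e-04) and at CHL1 2.39 (SE 0.27, adjusted p = 1.08e-16). The promoters of these genes did not move with the peaks. The promoter log2 fold change was -0.45 at IER5, 0.055 at HNRNPA3 and -0.0045 at CHL1, none of them past both thresholds for a call, and the DLGAP5 promoter was lost (-1.004, adjusted p = 7.86e-13).

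More unlisted intergenic peaks lost than gained H3K27ac in senescent cells. At a change of more than 1.5-fold and an adjusted p below 0.05 (authors' deposited DESeq2 values), 301 (8.78%) were gained and 544 (15.9%) were lost. Over all peaks the shares were 9.47% gained and 13.1% lost. In all, 24.7% of unlisted intergenic peaks were called against 22.6% of all peaks, and 64.4% of the called ones were losses against 58.1%. The median log2 fold change was -0.14, with an interquartile range from -0.64 to 0.35, against 0.0075 over all peaks. Values were below 0 in 57.5% of unlisted intergenic peaks and in 49.4% of all peaks. The median log2 fold change was 1.07 in gained and -1.07 in lost peaks, and 13 gained and 17 lost peaks changed by more than 4-fold. The authors' normalisation takes the typical peak as unchanged, and a general rise or fall of the mark would not appear in these values.

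**Figure D1:**
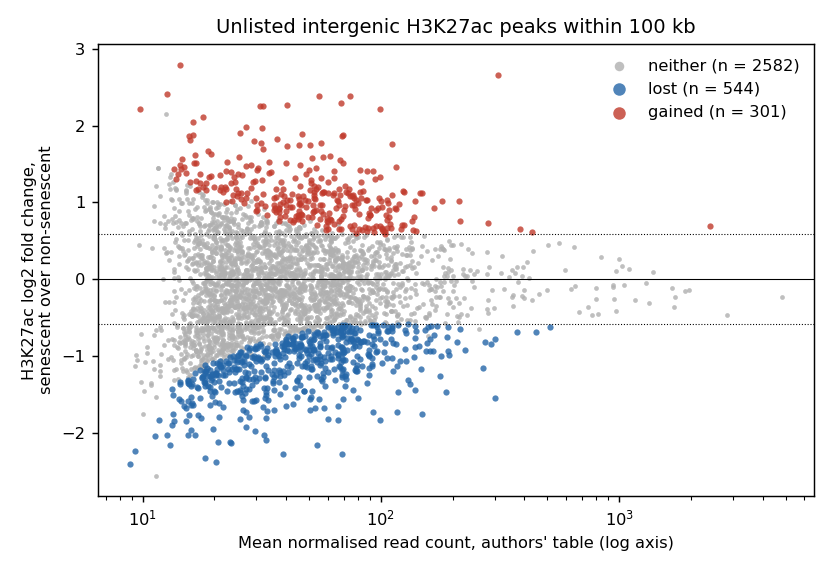
Each point is 1 of the 3427 unlisted intergenic H3K27ac peaks, with the authors' mean normalised read count on a log axis against the log2 fold change, senescent over non-senescent. Dotted lines mark a fold change of 1.5, and the 544 lost peaks outnumber the 301 gained ones over most of the count range.

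These were weak and narrow peaks, and a smaller share was called where counts were low. The median mean count was 36.0 normalised reads against 118.7 over all peaks, and the median width was 779 bp against 1742 bp. Other unlisted peaks were weak and narrow too. The medians were 29.6 reads and 667 bp inside genes, and 35.0 reads and 756 bp at 100 kb or farther. Together the 3427 peaks within 100 kb held 1.14% of the summed mean counts, and 1081 (31.5%) of them were exactly 500 bp wide. The median SE of the log2 fold change was 0.35 against 0.19 over all peaks. Split by mean count into 4 groups of about equal size, 15.8% were called in the lowest (8.89 to 22.4) and 33.1% in the highest (64.1 to 4823). Losses outnumbered gains in each group, with 94 against 41 in the lowest and 175 against 109 in the highest. A further 643 peaks passed the 1.5-fold change without an adjusted p under 0.05.

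Losses outnumbered gains here and among unlisted peaks 100 kb or farther from a start site, while gains outnumbered losses among unlisted peaks inside genes. Of 13054 unlisted peaks inside protein-coding genes 8.92% were gained and 7.22% lost, and their median log2 fold change was 0.10. Of 3445 unlisted intergenic peaks 100 kb or more away, 11.6% were gained and 15.4% lost, with a median of -0.086. Among peaks in the middle range of counts of unlisted intergenic peaks (22.4 to 64.0, a comparison added after the data were seen), 16.1% of 1713 unlisted intergenic peaks and 7.82% of 6160 peaks inside genes were lost, while 8.81% and 9.38% were gained. Of 578 peaks in listed enhancers in that range 39.6% were lost and 18.9% gained, against 19.7% and 14.3% of listed enhancer peaks of any count. Listing required H3K27ac signal in these same libraries in either state. A weak listed peak can have been listed through the state where it is higher, so its class is not a like comparison. At start sites the lost share was 20.1% in that range and 10.3% at any count. These differences between classes were not tested, since peaks are not replicates of a state.

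**Figure D2:**
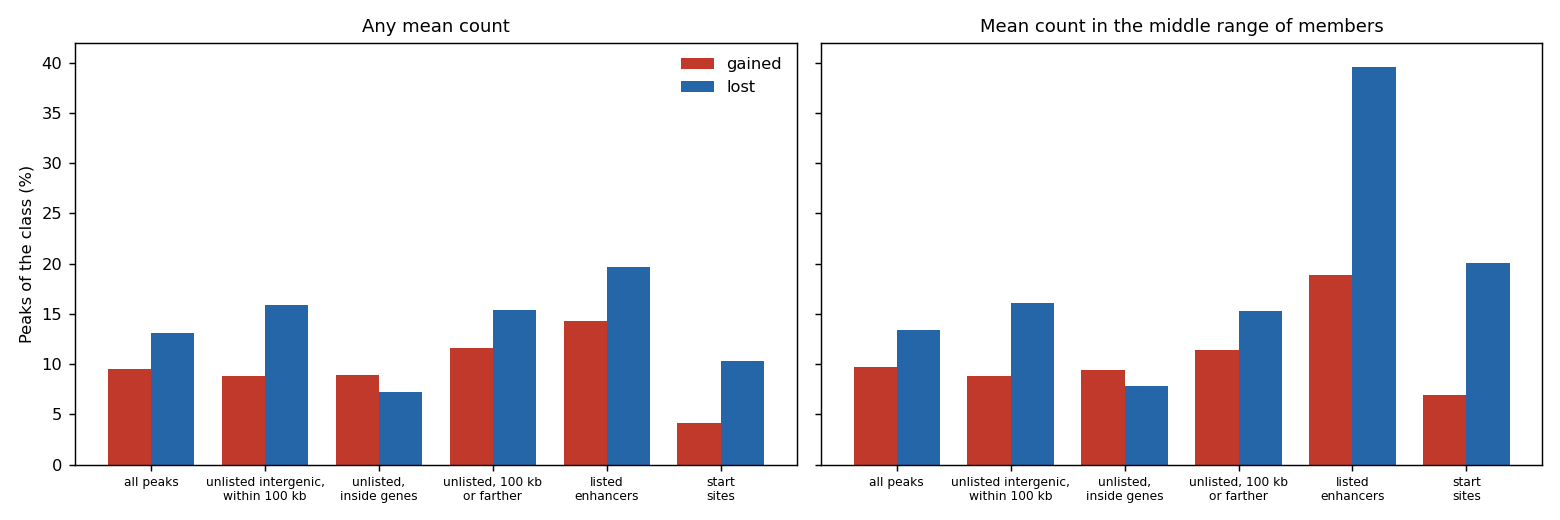
Bars give the share of peaks gained (red) and lost (blue) in each class by position, over all counts on the left and for mean counts from 22.4 to 64.0 on the right, with no error bars since each is a share of 1 table. Among unlisted intergenic peaks within 100 kb losses exceed gains in both panels (15.9% against 8.78%, and 16.1% against 8.81%), while inside genes gains exceed losses. Listed enhancers were chosen partly by H3K27ac in these libraries, so their bars on the right are not a like comparison.

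The gained peak with the smallest adjusted p lay 11096 bp downstream of the PIGP start site (chr21:37057593-37065838). PIGP encodes a subunit of the enzyme that starts GPI-anchor synthesis. It was among the strongest, with a mean count of 2412, and rose by a log2 fold change of 0.70 (SE 0.070, adjusted p = 8.57e-22). Larger changes were found at weaker peaks. The peak 49461 bp upstream of FMOD (chr1:203399899-203402541), which encodes the matrix proteoglycan fibromodulin, rose 6.31-fold (log2 fold change 2.66, SE 0.27, adjusted p = 8.82e-21) and no promoter peak was found for this gene. The peak 32400 bp upstream of LMO2 (chr11:33923736-33925218), a transcriptional cofactor gene, rose 4.89-fold. GNG10, which encodes a G protein subunit, had a peak with a log2 fold change of 1.76 (SE 0.21). The peak of MRPS30, a gene of the mitochondrial ribosome, had one of 1.46 (SE 0.20). These peaks, with those at IER5 and CHL1, were among the 8 gained peaks with the smallest adjusted p. The nearest listed enhancer was found in senescent cells alone for FMOD, CHL1 and MRPS30, at gaps from 6134 to 37345 bp.

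The lost peak with the smallest adjusted p lay 64177 bp upstream of SELENOP (chr5:42950287-42952853), which encodes a selenium transport protein. Its mean count was 300.8 and its log2 fold change -1.55 (SE 0.13, adjusted p = 1.06e-30). A peak 56950 bp upstream of SDK1 (chr7:3243476-3245130), an adhesion molecule gene, fell 4.83-fold (log2 fold change -2.27, SE 0.27, adjusted p = 6.94e-16). A second peak nearest to SDK1, 21599 bp from the start site, had a log2 fold change of -1.57 (adjusted p = 1.30e-05), and the SDK1 promoter was lost as well (-0.74, adjusted p = 1.11e-12). The peak 15197 bp upstream of KPNA2, an importin gene, had a log2 fold change of -1.16 (SE 0.13, adjusted p = 2.36e-17). The peak 30371 bp downstream of CPLX2, which encodes the exocytosis regulator complexin, had one of -1.74 (SE 0.22). The values were -1.44 at GTF3A, the gene of a transcription factor for 5S ribosomal RNA, and -1.73 at PLEKHG3, the gene of a guanine exchange factor. The 2 others of the 8, at NBPF11 (-1.75) and NBPF20 (-1.46), lie among near-identical gene copies on chromosome 1, so reads could have been assigned between copies and these values are uncertain.

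The strongest peaks did not change most. The highest mean count, 4823, was found 96507 bp downstream of the TTC7B start site, where the log2 fold change was -0.23 (SE 0.057). A peak 10040 bp upstream of SIRT4, which encodes a mitochondrial sirtuin, had a mean count of 1961 and a log2 fold change of -0.14 (SE 0.065, adjusted p = 0.068). The second highest count, 2851, was at a peak 500 bp wide nearest to CEACAM8 with a GC content of 5.4%, the lowest of the 3427, and an SE of 0.60, so that its log2 fold change of -0.47 (adjusted p = 0.56) is poorly determined.

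Peaks near islet transcription factor genes were numerous and mostly below the threshold for change. Of 42 such genes 17 had unlisted intergenic peaks, 45 in all, of which 5 were gained (11.1%, against 9.47% of all H3K27ac peaks) and 2 lost (4.44%, against 13.1%), with a median log2 fold change of -0.059. PDX1, the master regulator of pancreas and beta-cell identity, had 7 and ranked among the 5 genes with the most. None of the 7 was called by the authors' DESeq2 values (1 at an unadjusted p under 0.05), although 1 peak of 13.1 normalised reads had a log2 fold change of 1.33 (SE 0.60, adjusted p = 0.065), and the other 6 lay between -0.11 and 0.29. The 6 peaks of NKX6-1, a beta-cell homeodomain gene, ranged from -0.19 to 1.26, with 1 gained peak 30163 bp downstream (chr4:84466409-84467167, SE 0.42, adjusted p = 0.0084). ISL1, a LIM homeodomain gene of islet development, had 3 peaks of which 2 were gained, with log2 fold changes of 1.46 (SE 0.53, adjusted p = 0.019) and 0.79 (SE 0.30, adjusted p = 0.023). The 5 peaks of FOXA2 and the 3 of NKX2-2 held no called peak. SIX2 lost a peak 27124 bp downstream (-0.94, SE 0.39, adjusted p = 0.040), and its promoter was lost too (-2.01, adjusted p = 3.54e-13).

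**Figure D3:**
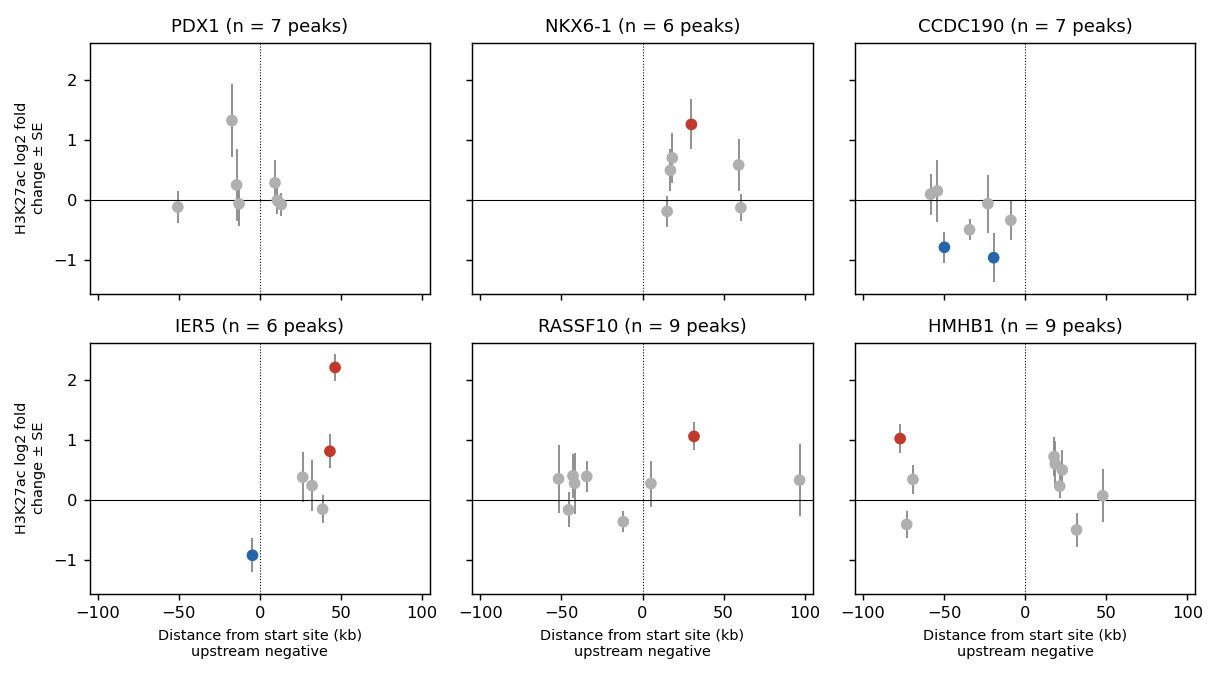
Each point is an unlisted intergenic peak of 1 of 6 genes with 6 to 9 such peaks, placed by the distance of its centre from the start site in kb (upstream negative), with the log2 fold change ± SE from the authors' table. Red points were gained, blue lost and grey neither. None of the 7 peaks of PDX1 was called, whereas IER5 had 2 gained peaks downstream and 1 lost peak upstream.

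At the genes with the most peaks, few of them were called. HMHB1 and RASSF10 had 9 each, PPIAL4G 8, and CCDC190 and PDX1 7 each. At HMHB1, the gene of a minor histocompatibility antigen, 1 peak was gained (1.03, SE 0.25, adjusted p = 1.89e-04) and the others ranged down to -0.49. At RASSF10, of the RAS-association domain family, 1 peak 31758 bp downstream was gained (1.06, SE 0.23, adjusted p = 3.25e-05). The 8 peaks of PPIAL4G, another gene with near-identical copies, held no called peak (2 at an unadjusted p under 0.05 by DESeq2). At CCDC190 2 peaks were lost, with log2 fold changes of -0.96 and -0.78. At IER5, with 6 peaks, the peak with the p53 site (2.21) was accompanied by a gained peak 43281 bp downstream (0.82, SE 0.28) and a lost peak 4500 bp upstream (-0.92, SE 0.28, adjusted p = 0.0043). In all, 2477 genes had at least 1 unlisted intergenic peak, 1830 had exactly 1 and 26 had 5 or more.

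Of 44 listed genes for hormones, secretory granules and exocytosis 13 had unlisted intergenic peaks, 22 in all. CPLX2, with its lost peak, was not on this list. Among the 22 listed peaks 1 was gained (4.55%, against 9.47% of all peaks) and 5 were lost (22.7%, against 13.1%). SST, the gene of the islet hormone somatostatin, had 3 peaks. The one 29350 bp downstream (chr3:187639873-187642217) had a log2 fold change of -0.91 (SE 0.18, adjusted p = 5.61e-06), that at 53106 bp had -1.27 (adjusted p = 0.0020), and the third had -1.09 without passing the test (adjusted p = 0.056). The SST promoter was lost (-0.86, adjusted p = 0.0089). Of 4 peaks nearest to PCSK1, which encodes a prohormone convertase, 2 were lost, with log2 fold changes of -0.79 (SE 0.28) and -0.73 (SE 0.27), and the PCSK1 promoter was lost (-1.41, adjusted p = 8.18e-59). UCN3, the gene of a peptide that marks mature beta cells, lost a peak 4337 bp upstream (-1.31, SE 0.38, adjusted p = 0.0027). Its other peak had a higher mean count (59.4 against 27.9) and was not called (0.20, SE 0.31), nor was its promoter (-0.42). The gained peak lay 5792 bp upstream of TTR, the transthyretin gene (1.14, SE 0.28, adjusted p = 2.29e-04). Of 13 peaks near glucose-sensing and excitability genes 7.69% were called in each direction, below both shares of all peaks. The gained peak was at CLTRN (0.89, SE 0.27), which encodes collectrin, and the lost peak at the somatostatin receptor gene SSTR2 (-1.33, SE 0.46).

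Near p53 target and CDK inhibitor genes 9 peaks were found, of which 2 were gained (22.2%, against 9.47% of all peaks) and 0 lost (against 13.1%), while the median of the 9 was -0.27. The gained peaks were 9183 bp upstream of the cell-cycle inhibitor gene CDKN1A (1.90, SE 0.66, adjusted p = 0.013), whose promoter was gained (2.50), and 16240 bp upstream of the stress gene GADD45A (0.63, SE 0.22, adjusted p = 0.014), whose promoter was gained as well (0.65). Of 46 listed cell-cycle genes 6 had unlisted intergenic peaks, 11 in all. DLGAP5, with its gained peak, was not on this list. Among the 11 listed peaks 0 were gained and 1 was lost (9.09%, against 13.1% of all peaks). The lost peak lay upstream of MYBL2, a cell-cycle transcription factor gene (-0.78, SE 0.17, adjusted p = 2.04e-05), where the promoter was lost too (-1.64). The 4 peaks nearest to MKI67, the proliferation marker gene, held no called peak, although the MKI67 promoter was lost (-2.29).

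Of 45 listed genes for secreted senescence factors 8 had unlisted intergenic peaks, 15 in all. All 15 had log2 fold changes below 0, against 57.5% of all unlisted intergenic peaks, with a median of -0.51. CXCL12, a chemokine gene, was not on this list, and its peaks were above 0 without a call (0.53, SE 0.28, and 0.81, SE 0.37). Of the 15 listed peaks 2 passed the test as losses (13.3%, near the 13.1% of all peaks). The lost peaks were 49016 bp upstream of BMP2, which encodes a TGF-beta family ligand (-1.42, SE 0.32, adjusted p = 4.62e-05), and 24594 bp downstream of VEGFA, the vascular growth factor gene (-0.85, SE 0.31, adjusted p = 0.022). Neither promoter was called (-0.0012 at BMP2 and 0.34 at VEGFA). Of 31 listed AP-1 and immediate early genes 8 had unlisted intergenic peaks, 11 in all. IER5, with 2 gained peaks and 1 lost peak, was not on this list. Among the 11 listed peaks 4 were lost (36.4%, against 13.1% of all peaks) and 0 gained (against 9.47%). They were the peak 41238 bp upstream of DUSP4, a MAP kinase phosphatase gene (-1.25, SE 0.25, adjusted p = 3.22e-06), 2 peaks of the transcription factor gene KLF4 (-1.05 and -1.46), whose promoter was lost (-0.59), and 1 of IER2 (-0.998, SE 0.34).

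Of 7 peaks near interferon and antigen presentation genes 3 were lost (42.9%, against 13.1% of all peaks) and 0 gained (against 9.47%). They included 2 peaks of the interferon receptor gene IFNAR2 (-0.80, SE 0.22, and -1.09, SE 0.41), whose promoter was not called (-0.025). Near insulin and FOXO signalling genes 3 of 10 peaks were lost (30%, against 13.1% of all peaks) and 0 gained (against 9.47%), among them those at IRS2, an insulin receptor substrate gene (-1.60, SE 0.47, adjusted p = 0.0026) and at the glycogen-targeting gene PPP1R3C (-0.69). The promoters of IRS2 (0.039) and PPP1R3C (0.016) were not called. Of 60 listed neuronal adhesion and guidance genes 19 had unlisted intergenic peaks, 26 in all. SDK1, with lost peaks, and CHL1, with a gained one, were not on this list. Among the 26 listed peaks 3 were gained (11.5%, near the 9.47% of all peaks) and 0 lost (against 13.1%). These were a peak 7839 bp upstream of the semaphorin gene SEMA3A (1.98, SE 0.40, adjusted p = 7.82e-06), one of SEMA6D (1.52, SE 0.44) and one of the guidance receptor gene ROBO2 (0.67, SE 0.21), whose promoter was gained (0.59). The promoters of SEMA3A (-0.041) and SEMA6D (0.34) were not called. Of 6 peaks near marker genes of other cell types 0 were called by the authors' DESeq2 values, and 1 had an unadjusted p under 0.05.

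The promoter of the nearest gene mostly did not share a called direction with the peak. A promoter peak was found for 2595 unlisted intergenic peaks. For the 247 gained peaks among them 17 promoters were gained (6.88%) and 12 lost, and 65.2% of promoters had a log2 fold change of the same sign. For the 395 lost peaks 61 promoters were lost (15.4%) and 7 gained, with the same sign in 49.4%. Over all 2595 the promoter was gained for 3.58% and lost for 10.2%. Lost peaks with lost promoters included those of DACT1 (peak -0.99, promoter -1.36), the serine synthesis gene PHGDH (peak -1.13, promoter -2.09) and the muscle fusion gene MYMK (peak -2.10, promoter -1.70). RAB9B, a small GTPase gene, had a gained peak (1.41) and a gained promoter (0.78).

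Losses outnumbered gains at each distance. Between 2 and 10 kb from the start site 6.95% of 633 peaks were gained and 12.2% lost, with a median log2 fold change of -0.041. From 10 to 50 kb 8.81% of 1759 were gained and 17.3% lost, and from 50 to 100 kb 9.86% of 1035 were gained and 15.7% lost, with medians of -0.16 in both. The peaks just inside the limit, at WSCD2 (99822 bp), SYNPR (99824 bp) and SIRPG (99948 bp), had log2 fold changes of 0.67, 0.028 and -0.65. Those just outside, at TBC1D1 (100088 bp), SALL1 (100166 bp) and KCNRG (100180 bp), had 0.56, 0.91 and 0.16.

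Log2 fold changes were mostly below 0 next to enhancers listed in non-senescent cells alone. They were mostly above 0 next to enhancers listed in senescent cells alone, although few of those peaks were called. The nearest listed enhancer lay at a median gap of 29832 bp, and 926 peaks were within 10 kb of one. Where it was listed in non-senescent cells alone, 5 of 195 peaks were gained (2.56%, against 9.47% of all H3K27ac peaks) and 47 lost (24.1%, against 13.1%). Their median log2 fold change was -0.48. Where it was listed in senescent cells alone, 7 of 112 were gained (6.25%) and 6 lost (5.36%), both below the shares of all peaks. The median there was 0.12, and 39.3% of values were below 0. Next to the 619 shared enhancers 53 peaks were gained and 61 lost (median -0.12), and of 2501 peaks with none within 10 kb 236 were gained and 430 lost (median -0.14). Peaks in listed enhancers within 10 kb moved likewise. Of the 113 lost peaks with such a neighbour 61 (54.0%) had a lost neighbour and 5 a gained one. Of the 65 gained peaks with such a neighbour, 11 (16.9%) had a gained neighbour and 2 a lost one. Over all 910 peaks with such a neighbour it was gained for 8.90% and lost for 22.4%. Lists and fold changes draw on the same H3K27ac libraries, so this is a description. Among 456 neighbouring pairs of unlisted intergenic peaks within 10 kb of each other, both were called in 30, of which 21 were lost together, 7 gained together and 2 went opposite ways.

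CTCF overlapped 703 of the unlisted intergenic peaks (20.5%), against 26.9% of all H3K27ac peaks. The share was 10.9% in unlisted peaks inside genes, 12.4% in those 100 kb or farther from a start site, 24.3% in listed enhancers and 47.4% at start sites. In the middle range of counts it was 20.4% for unlisted intergenic peaks, 15.6% for all peaks, 11.0% inside genes, 11.9% at 100 kb or farther, 16.8% in listed enhancers and 31.2% at start sites. Of the peaks with CTCF most of the called ones were losses, with 34 gained (4.84%) and 149 lost (21.2%) and a median log2 fold change of -0.27, while of the 2724 without it 267 (9.80%) were gained and 395 (14.5%) lost, with a median of -0.12. The median GC content was 49.0% with CTCF and 43.9% without, and its part in the result was not tested.

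**Figure D4:**
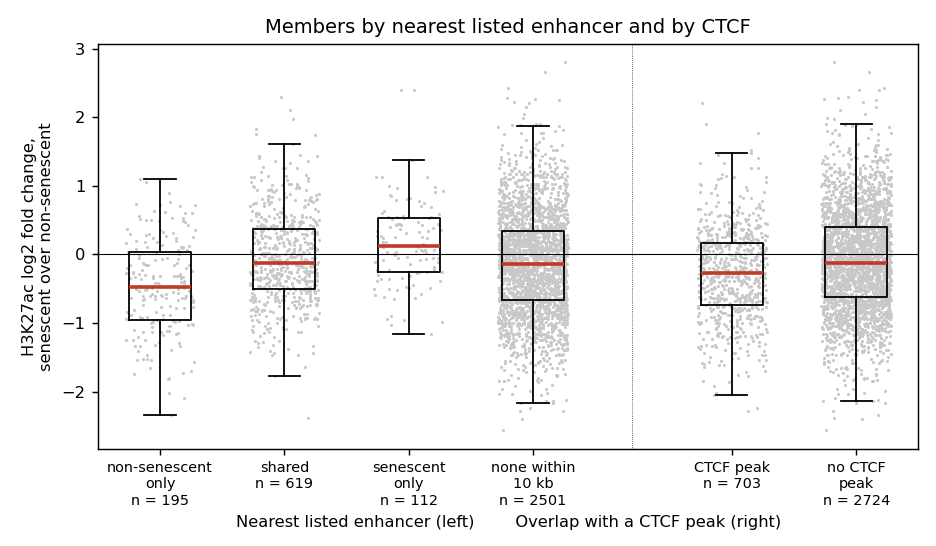
The log2 fold change of each unlisted intergenic peak (grey points) with boxes for the quartiles, red lines for the medians and whiskers to the farthest value within 1.5 box lengths, by nearest listed enhancer within 10 kb on the left and by overlap with a CTCF peak on the right. Medians run from -0.48 next to enhancers of non-senescent cells alone to 0.12 next to those of senescent cells alone, and are -0.27 with and -0.12 without a CTCF peak.

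Where both were called, CTCF binding, measured in other libraries, moved in the same direction as H3K27ac, and nearly all such pairs were losses. Of 711 overlapping pairs 632 had an adjusted p for CTCF, of which 8 were gained and 18 lost (adjusted p under 0.2 and fold change above 1.5, authors' deposited table). Over all 39485 CTCF peaks with an adjusted p 2.99% were gained and 4.28% lost, 7.27% in all. Both marks were called in 14 pairs, and all 14 had the same sign. At called H3K27ac peaks 129 of 184 pairs (70.1%) had the same sign, and over all pairs 57.2% did. At lost peaks 13 CTCF peaks were lost and 0 gained, with a median CTCF log2 fold change of -0.12. At gained peaks 1 CTCF peak was gained and 0 lost. The median CTCF log2 fold change there was 0.036, and 58.8% of the 34 pairs were above 0. The clearest CTCF losses lay at SOX21, a gene of the SOX transcription factors (CTCF -1.15, SE 0.28, adjusted p = 0.0050, H3K27ac -1.35, SE 0.24), at the lipase gene LIPG (CTCF -0.86, SE 0.22, H3K27ac -1.34, SE 0.47) and at AHCYL1, a regulator of IP3 receptors (CTCF -1.06, SE 0.28, H3K27ac -0.88, SE 0.32). The 3 highest by adjusted p, at SNRPE (0.51), DYNLRB2 (0.53) and H2BC11 (0.57), stayed under the 1.5-fold change, and of these the H3K27ac peak at DYNLRB2 was gained (0.76, SE 0.26, adjusted p = 0.013).

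Rb regions specific to senescent cells overlapped 5 unlisted intergenic peaks (0.146%, against 0.691% of all peaks), nearest to PHYHIPL, MRPL48, EXOC1, C5orf46 and ANKRD18B. None of the 5 was called by DESeq2 (2 had an unadjusted p under 0.05), and their log2 fold changes lay between -0.24 and 0.36.

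The motif shares of gained and lost peaks lay farthest apart for the NEUROD E-box. The NEUROD E-box CAGATGG was found in the central 500 bp of 9.30% of gained and 18.4% of lost peaks, against 13.4% of all H3K27ac peaks. Its share was 11.0% of all gained peaks and 20.2% of all lost peaks of the whole table. MAF matches were found in 11.0% of gained and 7.90% of lost peaks against 8.23% of all peaks, and homeodomain matches in 11.3% and 7.35% against 8.25%. For AP-1 the shares were 18.9% of gained and 14.3% of lost peaks against 14.9%, and for IRF 20.6% and 16.4% against 16.4%. NF-Y matches were found in 10 gained and 8 lost peaks (3.32% and 1.47%, against 1.87%). E2F matches were rarer in unlisted intergenic peaks than over all peaks (0.496% against 0.983%), with 0 of the gained and 5 of the lost peaks holding one. For forkhead (10.3% and 10.8%), RFX (8.64% and 8.46%) and the MYC E-box (7.31% and 8.09%) the shares of gained and lost peaks lay close together. CRE was found in 12 unlisted intergenic peaks and NFI in 1. Gained peaks had a median GC content of 42.6% and lost peaks one of 46.4%, and the part of base composition in the motif shares was not tested.

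**Figure D5:**
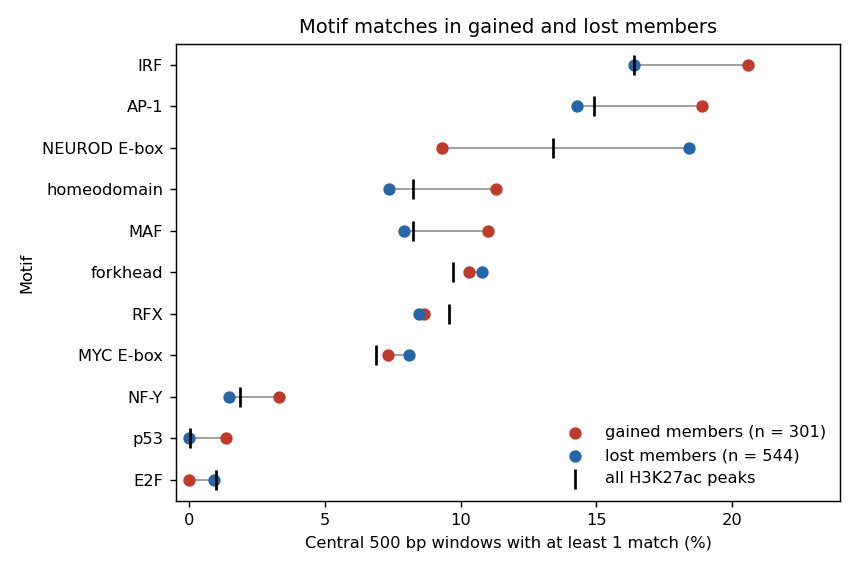
Share of central 500 bp windows with at least 1 match to each motif on either strand, for gained (red) and lost (blue) unlisted intergenic peaks, with a black tick for all 51489 H3K27ac peaks. The widest gap is that of the NEUROD E-box, with 9.30% of gained and 18.4% of lost peaks, while p53 sites were found in 1.33% of gained and 0 of the lost peaks.

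The chromatin was that of a beta-cell line by its promoters. Peaks at INS, PDX1, NKX2-2, NEUROD1 and ISL1 had mean counts at percentiles from 98.8 to 99.99 of all peaks. The direction of the scale was given by the promoters of MKI67 (-2.29) and CDKN1A (2.50).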

How the data were processed

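Reads had been aligned to hg38, peaks called and read counts compared by the authors (per the study's methods, Bowtie2, HOMER for H3K27ac, MACS2 for CTCF and DESeq2; versions are not given in the sources used here). The deposited tables give, for each peak, the mean signal, a count divided by size factors and averaged over libraries, the log2 fold change (senescent over non-senescent) with its standard error, the Wald score, and the p-value with its Benjamini-Hochberg adjustment over all peaks. These columns are the authors' own comparison. They were used because the tables hold no values per library, and no model was refitted, so the depth of single libraries is unknown. The deposited region lists hold positions alone.

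Gained and lost peaks were those with a change of more than 1.5-fold and an adjusted p below 0.05 (H3K27ac) or 0.2 (CTCF), the thresholds of the study. The study counted CTCF changes only at peaks holding the CTCF motif, and no such filter was applied here. Start sites and genes were those of GENCODE 44, overlaps were at least 1 bp, and a gene's promoter peak was the peak with the highest mean count within 2 kb of its start sites. Deposited starts were read as counted from 0 and printed counted from 1. All chromosome names matched hg38 and 0 peaks ended beyond a chromosome. Peaks named were the 8 gained and 8 lost with the smallest adjusted p, the 4 with the highest mean count, the called peak with the smallest adjusted p in each direction of each gene list, the 3 with the smallest CTCF adjusted p in each direction, the 3 on either side of 100 kb, and the 5 genes with the most peaks. The p53 sites, other called peaks of the gene lists, further genes and Rb overlaps were named after their values were seen. Some peaks that these rules name are not reported here. Members and lists were chosen with earlier results of these data known. Each gene list was a selection of 27 to 61 genes, so its counts hold for the listed genes and not for every gene of that function. Printed windows were moved so that their matches stand near the middle. NFI sites were searched with 4 bases inside the palindrome, and a version with 5 was added. The planned share of soft-masked sequence was not computed, since the reference used here is in capitals throughout. The scripts (Python 3.11.15, pandas 2.3.3, numpy 2.4.6, scipy 1.17.1, matplotlib 3.10.9) were tested on simulated data.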

Additional observations from a re-analysis of the deposited data

How the results depend on the processing

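Losses outnumbered gains among unlisted intergenic peaks under each alternative tried. The median log2 fold change stayed below 0, although settings that change only the call cannot move it. Shares of all peaks under these alternatives are not given here. With a fold change above 2 there were 178 gained and 318 lost peaks, with an adjusted p below 0.01 195 and 322, and with a test against a fold change of 1.5 32 and 42. With a mean count of at least 50, which left 1214 peaks, 157 were gained and 245 lost, and with a limit of 50 kb, which left 2392, 199 were gained. These settings are stricter or test fewer peaks. Centring on the peaks at protein-coding start sites, which moved the median of all peaks by 0.033, gave 284 gained and 590 lost peaks. Without peaks 500 bp wide, an alternative chosen after seeing the data, 255 were gained and 448 lost. With the CTCF threshold at 0.05, the overlaps held 4 gained and 6 lost CTCF peaks in place of 8 and 18. In 1000 bp windows the NEUROD E-box was found in 18.3% of gained and 29.8% of lost peaks. Of 77 alternative values 43 were counted as within the spread or within 1.5 times. The other 34 include motif shares in the wider windows, and some of these shares were 0 in both windows and so did not change. NFI sites with 5 inner bases were found in 2 unlisted intergenic peaks. No paired analysis was possible because the tables hold no values per library, and leaving out single libraries could not be run for the same reason.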

Other observations

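Of the unlisted intergenic peaks 756 (22.1%) had their centre inside an lncRNA gene. Among these 74 were gained (9.79%) and 110 lost (14.6%), against 8.50% and 16.2% of the 2671 others. Upstream of the nearest start site 211 of 2283 peaks were gained and 357 lost, and downstream 90 of 1144 were gained and 187 lost. Near ST18, a zinc-finger gene of the islet list, 2 peaks changed in opposite directions. The peak 59414 bp upstream was gained (log2 fold change 0.75, SE 0.30, adjusted p = 0.036, authors' deposited DESeq2 table), and the one 57721 bp upstream was lost (-0.70, SE 0.29, adjusted p = 0.047). At SMAD2, a gene of TGF-beta signalling, 2 of 6 peaks were lost (-1.45, SE 0.56, and -1.05, SE 0.43), and at HDAC4, a histone deacetylase gene, 1 of 6 (-1.24, SE 0.47).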
